A study of Drosophila melanogaster with 2 samples.

Results

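The peaks described here lie on chromosome 4 or in the pericentric ends of the assembled arms 2L, 3L, 3R and X. They were chosen by position alone from a list of 30000 pooled peaks of a ChIP-seq experiment on the product of CG4282, a zinc finger protein with a ZAD domain. A peak was a member if its summit lay past 22 Mb on 2L, past 22.9 Mb on 3L, before 4.2 Mb on 3R or past 22.6 Mb on X, or anywhere on chromosome 4. The rule gave 275 members, 0.917% of the list, of which 116 lay on chromosome 4 and 159 in the pericentric parts. By arm, the pericentric members numbered 55 on 3L, 40 on 3R, 38 on 2L and 26 on X. The remaining 29725 peaks are called all other peaks, and they include the centromere end of 2R, for which the rule names no interval. The boundaries are round positions and were not derived from chromatin marks.

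ChIP-seq sequences the DNA that an antibody pulls down with a protein. The libraries came from embryos of a stable transgenic line, strain CG4282-GFP, in which GFP is fused to the C-terminal end of the CG4282 product. The embryos were pooled males and females collected over 0 to 24 h, and an anti-GFP antibody was used on sonicated chromatin of 200 to 800 bp. All samples formed 1 group with 2 libraries, biological replicates 3 and 4, and no untagged line or input is analysed here. A whole embryo mixes tissues and stages, so the values are averages over them, and other anti-GFP signal in the same places was not measured. A relaxed list of 30000 peaks was deposited per replicate, the pooled list joined both replicates, and the authors' optimal list held 1985 peaks that passed their reproducibility threshold. These 1985 were the 1985 strongest pooled peaks by the deposited signal, an enrichment value whose scale is not given in the sources used here. Sequencing depth is unknown, because the lists hold no read counts. Intervals below are Wilson 95% intervals and cover counting error over peaks only, since peaks are not replicates.

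Pericentric heterochromatin is the compact, gene-poor DNA around the centromeres, rich in transposable elements and packed with methylated histone H3 and the protein HP1. Chromosome 4 of Drosophila is a very small chromosome that carries HP1 and repeats along much of its length, and most of its genes are nevertheless active. The protein POF binds that chromosome in particular. Genes that normally sit in pericentric DNA, such as light and rolled, are known for needing that setting to be expressed.

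The optimal peaks among the members all lay on chromosome 4. The DNA under 8 of them is shown, read from the RefSeq FASTA of the release 6 assembly (dm6), plus strand, 5′ to 3′, within 50 bp of the summit, because these are the members that passed the authors' threshold. Bases in capitals mark matches, on either strand, to the GAGA factor motif GAGAG, the BEAF-32 core CGATA, the word CACAGTGG or the TATA box TATAAA. The RpS3A stretch stops before the gene's transcript, and the ninth optimal peak, which lies in a 3′ UTR, is not shown. Both Sox102F stretches lie inside the gene, upstream of an internal start.
Upstream of lncRNA:CR43437 (chr4:424757-424857): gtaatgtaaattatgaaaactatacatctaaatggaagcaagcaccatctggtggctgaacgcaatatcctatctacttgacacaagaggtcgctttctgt
Upstream of zfh2 (chr4:497822-497922): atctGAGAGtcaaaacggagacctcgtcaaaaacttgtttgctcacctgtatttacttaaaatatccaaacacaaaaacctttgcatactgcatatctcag
Sox102F, 230 bp upstream (chr4:807527-807627): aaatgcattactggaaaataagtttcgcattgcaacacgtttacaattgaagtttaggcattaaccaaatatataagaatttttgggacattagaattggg
Sox102F, 431 bp upstream (chr4:807728-807828): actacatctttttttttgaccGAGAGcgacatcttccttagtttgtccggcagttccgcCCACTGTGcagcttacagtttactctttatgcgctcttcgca
RpS3A (chr4:67208-67289): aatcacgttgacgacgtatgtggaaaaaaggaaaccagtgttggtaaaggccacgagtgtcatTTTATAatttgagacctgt
PlexA (chr4:1027173-1027273): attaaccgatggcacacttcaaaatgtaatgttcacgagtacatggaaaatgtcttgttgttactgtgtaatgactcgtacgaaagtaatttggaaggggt
Asator intron (chr4:486593-486693): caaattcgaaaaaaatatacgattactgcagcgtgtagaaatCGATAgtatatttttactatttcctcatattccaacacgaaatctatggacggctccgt
Upstream of fuss (chr4:983010-983110): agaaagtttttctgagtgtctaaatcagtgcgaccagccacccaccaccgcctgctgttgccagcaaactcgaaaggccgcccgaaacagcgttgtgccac

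Capitals stand in 4 of these stretches, namely GAGAG in the zfh2 one and in the Sox102F one farther upstream, which also holds CACAGTGG. TATAAA stands on the minus strand, the strand of the gene, in the RpS3A stretch, and CGATA in the Asator intron. The 3 pericentric peaks shown next are the strongest of 3L, 2L and 3R, and none of them was optimal. Only the Gfat1 stretch holds a match.
mRpS5 (chr3L:24537707-24537807): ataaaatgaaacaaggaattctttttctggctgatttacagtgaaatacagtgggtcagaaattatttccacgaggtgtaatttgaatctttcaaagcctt
Clamp (chr2L:22167319-22167419): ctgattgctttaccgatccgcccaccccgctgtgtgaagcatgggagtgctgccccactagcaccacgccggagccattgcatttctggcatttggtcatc
Gfat1 (chr3R:4130720-4130820): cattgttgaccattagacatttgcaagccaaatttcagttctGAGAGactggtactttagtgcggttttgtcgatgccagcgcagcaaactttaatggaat

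Of the 275 members, 9 were in the optimal list, a share of 3.27% (interval 1.73% to 6.1%). In the pooled list as a whole the share was 6.62%, and among all other peaks it was 6.65%, or 1976 peaks. Chromosome 4 alone gave 9 of 116, or 7.76% (4.14% to 14.1%), an interval that holds the share of all other peaks. The pericentric parts gave 0 of 159, and a count of 0 there allows a share of up to 1.89%. That limit, and the upper end of the pericentric interval at 2.36%, lie below the share of all other peaks. The strongest pericentric peak ranked 3314 in the pooled list.

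The signal over all peaks of each part, optimal ones included, was lower in the pericentric parts by the median. The optimal peaks are the strongest by this same signal, so this is not a separate result. The median signal was 28.6 on chromosome 4 with quartiles of 22.9 and 37.3, and 24.1 in the pericentric parts with quartiles of 21.7 and 30.0. All other peaks had a median of 28.1 with quartiles of 23.5 and 36.9. The pericentric medians by arm were 29.4 on 2L, 23.9 on 3L, 23.6 on 3R and 23.1 on X, so by the median alone 2L stood with chromosome 4. Its upper quartile of 32.8 and highest signal of 49.1 were below those of chromosome 4, and none of its peaks was optimal. The highest member signal was 179.6 on chromosome 4 and 51.9 in the pericentric parts, against 1065 among all other peaks.

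**Figure D1:**
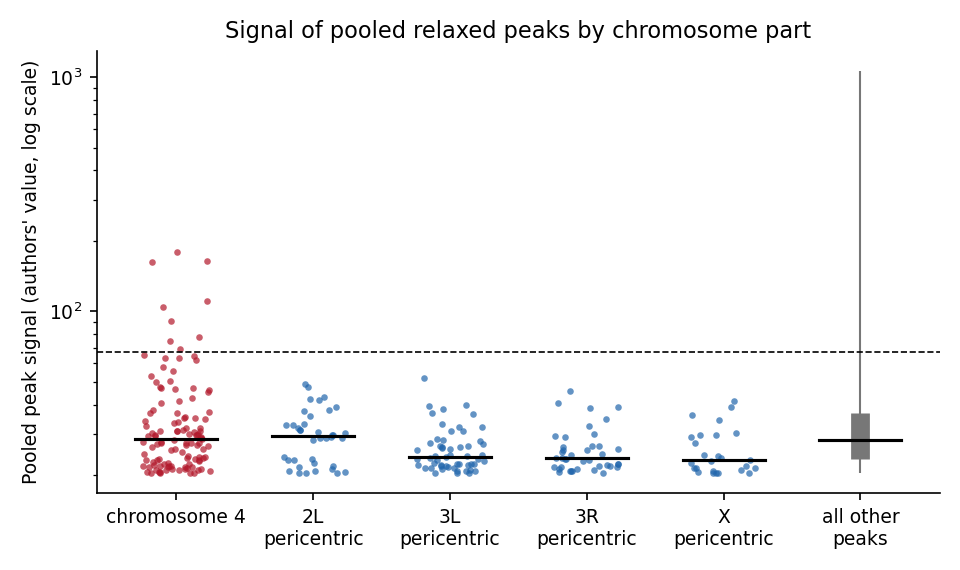
Pooled peak signal (authors' value, log scale) for the 116 members on chromosome 4 and the pericentric members of 2L, 3L, 3R and X, each point 1 peak, with the median as a black bar. All other peaks are drawn as a grey line from lowest to highest with a thick bar from the lower to the upper quartile, and the dashed line is the lowest optimal signal, 66.9. Only points on chromosome 4 stand above the line among the members.

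The 3 strongest members lay away from promoters. The strongest, at 424607 to 425006 on chromosome 4, had a signal of 179.6 and pooled rank 233, with 84.4 in replicate 3 and 92.7 in replicate 4. Its summit was 1260 bp upstream of lncRNA:CR43437, a long non-coding RNA gene. The nearest starts of protein-coding genes were those of dati, which encodes a zinc finger protein, 29202 bp away, and lgs, which encodes a Wnt co-activator, 19104 bp away.

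The next, at 497672 to 498071, had a pooled signal of 164 and rank 285, with 63.4 in replicate 3 and 99.8 in replicate 4. It lay 3938 bp upstream of zfh2, a gene for a zinc finger homeodomain transcription factor. A weaker peak, signal 35.1, lay 76 bp inside the zfh2 start itself.

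The third, at 1113127 to 1113526, had a pooled signal of 162 and rank 296, with 76.9 in replicate 3 and 86.4 in replicate 4. It lay between 2 gene ends: its summit was in the 3′ UTR of Cals, which encodes the neuronal cell surface protein calsyntenin, and 10 bp past the annotated end of sv, which encodes a Pax family factor for sensory organs. The genes run towards each other, and the nearest coding starts were 14802 bp away at sv and 9638 bp away at Cals. Neither gene had a pooled peak within 500 bp of a start.

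Promoter peaks came next. Sox102F, a gene for an HMG box transcription factor, had 2 overlapping optimal peaks, both inside the gene and upstream of an internal start. One lay 230 bp from that start with signal 111 and rank 715, and the other 431 bp from it with signal 74.4 and rank 1590. Both met the same replicate peaks, with a signal of 54.8 in replicate 3 and 58.9 in replicate 4, so the 9 optimal peaks stand for 8 separate sites. RpS3A, which encodes a protein of the small ribosomal subunit, had a peak 32 bp upstream of its start with signal 104 and rank 789. Its replicate signals were 46.7 in replicate 3 and 55 in replicate 4. PlexA, which encodes a receptor for semaphorin guidance cues, had a peak 122 bp upstream with signal 90.9 and rank 1054, and its replicate signals were 34.8 in replicate 3 and 53.7 in replicate 4.

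The remaining pair lay off the promoters. In an intron of Asator, a gene for a protein kinase linked to the mitotic spindle, a peak 610 bp upstream of an internal start had signal 77.7 and rank 1474, with 34.5 in replicate 3 and 58 in replicate 4. The weakest optimal member, with signal 69.1 and rank 1837, lay 4571 bp upstream of fuss, whose product belongs to the Ski and Sno family of co-repressors, and 6665 bp from toy, a Pax6 gene. Its signal was 18.5 in replicate 3, where it ranked 3885, and 49 in replicate 4, where it ranked 1463. It is the only optimal member outside the 1985 strongest peaks of a replicate.

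Thus 4 of the 9 were promoter peaks (44.4%), against 1290 of 1976 optimal peaks elsewhere (65.3%). Of the 9, 8 met the 1985 strongest peaks of both replicates (88.9%, 56.5% to 98%), against 1306 of 1976 elsewhere (66.1%). Their median signal was 104, against 93.8 elsewhere, and the median GC content within 50 bp of the summit was 37.6%, against 39.6%. Both overlapping Sox102F peaks are counted in these shares although they met the same replicate peaks. With 9 peaks, none of these shares is precise.

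Just below the threshold stood further peaks at or near chromosome 4 starts. The nearest to the threshold was an intergenic peak 554 bp upstream of Asator, with signal 65.4 and rank 2067. Its replicate ranks were 1425 in replicate 3 and 4968 in replicate 4. Next were gw (signal 64.5), which encodes a protein of microRNA silencing, Gyf (63.3), which encodes a translational repressor, and pan (63.1), which encodes the TCF factor of Wnt signalling. Their summits lay 69, 66 and 50 bp upstream of a start. Tdg, a gene for a thymine DNA glycosylase, had a signal of 62.2 but very unlike replicates, with rank 16680 in replicate 3 and 1298 in replicate 4. PlexB, the other semaphorin receptor gene, had 57.8, and CaMKII, a calcium-dependent kinase gene, had 55.9. A peak inside CG11076, 46 bp upstream of a start of that gene, had 52.9. It also lay 463 bp upstream of ATPsynbeta, which encodes a subunit of the mitochondrial ATP synthase.

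The pericentric peaks were weaker than these. The strongest lay at mRpS5 on 3L (24537557 to 24537956), a mitochondrial ribosomal protein gene, 394 bp inside the start, with signal 51.9, and it had 18.5 in replicate 3 and 36.6 in replicate 4. Clamp on 2L, whose zinc finger product binds GA repeats and acts in dosage compensation, held 2 coding-exon peaks with signals of 49.1 and 41.8. The weaker of them met the only pericentric peak among the 1985 strongest of a replicate, with signal 28.9 and rank 1788 in replicate 3, although in replicate 4 its rank was 13685. Also on 2L, the 3′ UTR of tio, which encodes a Teashirt family zinc finger protein, held a peak of 47.7, and a coding exon of the cyclin gene CycK held one of 43.1.

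On 3R the strongest peak was 249 bp inside the start of Gfat1, which encodes the enzyme that starts hexosamine synthesis, with signal 45.7, 11.9 in replicate 3 and 29.8 in replicate 4. It was followed by CR33294 with 40.5 and a coding exon of CG12581 with 38.9. On X the strongest, at 41.6, lay 67 bp inside the start of Rab21, a gene for a trafficking GTPase, and 153 bp upstream of Coa7. The next were near mir-2491 inside fog, which encodes a secreted signal of gastrulation, at 39.2, and in an intron of fog, at 36.1. The mir-2491 peak met no peak of replicate 4. On 3L, CG12768 had 39.8 and alpha-Cat, which encodes a link between cadherins and actin, had 39.5.

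**Figure D2:**
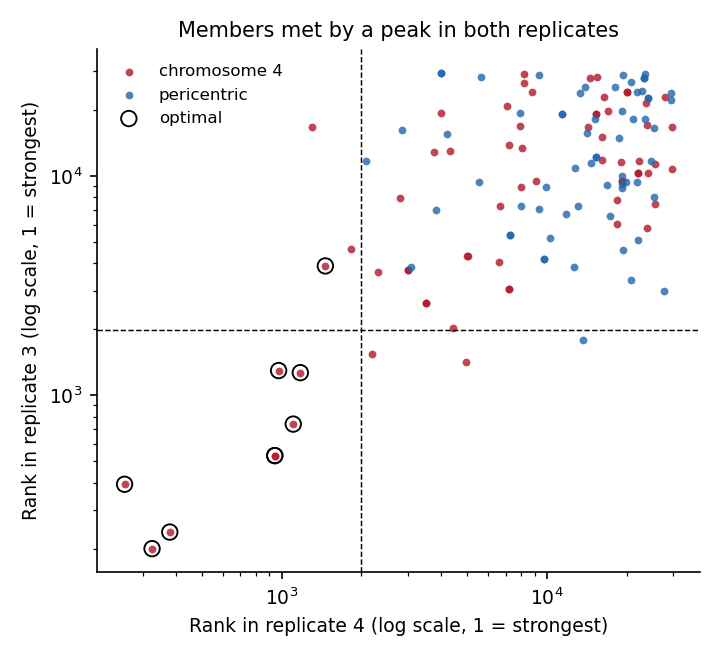
Rank of the strongest overlapping peak in replicate 4 (x axis, log scale) and replicate 3 (y axis, log scale) for the 129 members met in both, with chromosome 4 in red, pericentric members in blue and optimal members circled. Dashed lines stand at rank 1985, and 8 of the 9 circled points lie inside both of them.

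The replicates differed in how much of each list fell here. The replicate 3 list placed 478 of its peaks in the intervals, or 1.59%, of which 199 were on chromosome 4, whereas the replicate 4 list placed 277, or 0.923%, of which 112 were on chromosome 4. Of the replicate 3 members, 26.6% overlapped a replicate 4 peak by at least 1 bp, against 53.3% of the other replicate 3 peaks. Of the replicate 4 members, 46.9% overlapped a replicate 3 peak, against 52.8% of the other replicate 4 peaks. By part, the replicate 3 share was 32.2% on chromosome 4 and 22.6% in the pericentric parts, and the replicate 4 share was 59.8% and 38.2%.

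Seen from the pooled list, 129 members (46.9%, 41.1% to 52.8%) met a peak in both replicates, against 52.5% of all other peaks. A further 15 members (5.45%), 12 of them pericentric, met none in either, against 987 of all other peaks (3.32%). The share met in both was 56.9% on chromosome 4 (47.8% to 65.5%) and 39.6% in the pericentric parts (32.4% to 47.4%), so the pericentric interval lies below the share of all other peaks and that of chromosome 4 holds it. By arm it was 52.6% on 2L, 50% on X, 37.5% on 3R and 27.3% on 3L. The strongest 1985 peaks of replicate 3 held 11 of its members (2.3%), 10 of them on chromosome 4, against 6.69% of its other peaks. Those of replicate 4 held 10 (3.61%), all on chromosome 4, against 6.64% of its other peaks. Of each replicate's chromosome 4 peaks, the strongest 1985 held 5.03% in replicate 3 and 8.93% in replicate 4, so the replicates fell on either side of the share of other peaks.

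Peaks were sparse in these intervals. Chromosome 4 held 86 pooled peaks per Mb over 1.35 Mb and the pericentric parts 13.4 per Mb over 11.9 Mb, against 246 per Mb over the 121 Mb that remain. On upper-case reference bases only, they were 119 on chromosome 4 and 22.4 in the pericentric parts, against 301 elsewhere. Optimal peaks stood at 6.68 per Mb on chromosome 4, against 16.4 per Mb elsewhere. Chromosome 4 had 118 annotated genes, of which 36 (30.5%) had a pooled summit within 500 bp of a start, and the pericentric parts had 228 genes, of which 38 (16.7%) did, against 46.8% of the 17818 genes elsewhere.

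Of the genes with such a summit, 20.7% in the whole list had an optimal one. The share was 3 of 36 on chromosome 4 (8.33%), namely Sox102F, RpS3A and PlexA, and 0 of 38 in the pericentric parts, against 1737 of 8331 elsewhere (20.8%). The strongest peak per gene had a median signal of 34.1 on chromosome 4 and 31.1 in the pericentric parts, against 38.4 elsewhere.

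On 2L, 3L and 3R the peaks crowded near the boundaries. The first 0.25 Mb inside the 4 boundaries held 69 of the 159 pericentric peaks and 68 genes, and the next 0.25 Mb held 22 peaks and 39 genes. Beyond 2 Mb, 35 peaks lay over 5.41 Mb, or 6.47 per Mb, beside 7.02 genes per Mb. On 2L the first 0.25 Mb held 29 of its 38 peaks, and the next 0.25 Mb held none. X differed, with 11 peaks and 10 genes in the first 0.25 Mb and 11 peaks and 24 genes in the next. The deepest peaks lay 5.08 Mb inside the 3L boundary, 4.11 Mb inside that of 3R, 1.37 Mb inside that of 2L and 0.732 Mb inside that of X.

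Optimal peaks lay shortly outside the boundaries on 3 of the 4 arms. In the 200 kb just outside, 181 peaks held 10 optimal ones (5.52%), 5 of them on 3R, 4 on 3L and 1 on 2L. The nearest outside optimal peak was 21.1 kb from the 3L boundary at Chro, which encodes a chromodomain protein of interbands, and its signal was 696. It was 15.8 kb away on 3R near CG14636 (signal 116) and 133 kb away on 2L near lncRNA:CR44917 (signal 132). On X it was 1232 kb away at bbx (signal 83.8).

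The nearest pooled peaks on the inner side were near CG31693 on 2L (signal 21.2), CG12768 on 3L (39.8), beta-Man on 3R (25.2) and Cda4 on X (20.8). The nearest on the outer side were near lncRNA:CR44916 on 2L (22), CG11131 on 3L (31.2), beta-Man on 3R (29.2) and CG17598 on X (31.7). None of these 8 was optimal, and signals on both sides were of the same order.

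**Figure D3:**
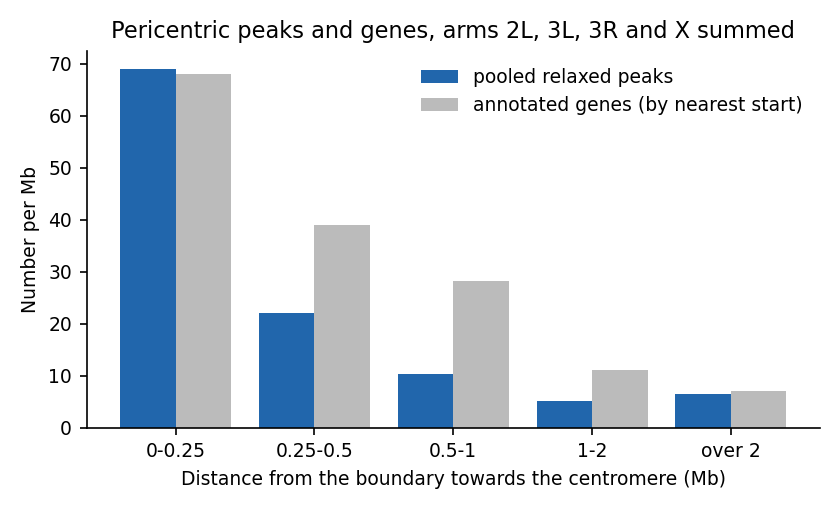
Pooled relaxed peaks per Mb (blue) and annotated genes per Mb (grey), summed over the pericentric parts of 2L, 3L, 3R and X, by distance in Mb from the boundary towards the centromere. In the sum both are highest in the first 0.25 Mb, at 69 peaks and 68 genes per Mb, and both are at most 11.1 per Mb beyond 1 Mb. X alone, not drawn apart, has 44 peaks per Mb in both the first and the next 0.25 Mb.

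By annotation class, the promoter share of the chromosome 4 members had an interval that holds that of all other peaks, and the pericentric share was lower. A summit within 500 bp of a start was found for 41 of 116 on chromosome 4 (35.3%, 27.2% to 44.4%) and 34 of 159 in the pericentric parts (21.4%, 15.7% to 28.4%), against 30.2% of all other peaks. Intergenic summits made up 19% on chromosome 4 and 34.6% in the pericentric parts, against 12.3% elsewhere. Coding exons held 21.6% on chromosome 4 and 10.7% in the pericentric parts, against 23.8% elsewhere.

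Of all pooled promoter peaks, 14.3% were optimal. On chromosome 4 it was 4 of 41 (9.76%, 3.86% to 22.5%), and in the pericentric parts 0 of 34, which allows up to 8.82%. Of all pooled intergenic peaks, 4.41% were optimal, and chromosome 4 gave 3 of 22 (13.6%, 4.75% to 33.3%). The pericentric parts gave 0 of 55 intergenic peaks, which allows up to 5.45%, and 0 of 45 intronic peaks, which allows up to 6.67%, against 4.42% and 5.69% of all other peaks in these classes. Within either class the pericentric 0 therefore cannot be told from the share of all other peaks. Both chromosome 4 intervals are wide, since they rest on few peaks. Among promoter peaks the summit was upstream of the start in 24 of 41 on chromosome 4 (58.5%) and 20 of 34 in the pericentric parts (58.8%), against 47.7% of the other promoter peaks. The interval of the 75 promoter members together, 47.4% to 69.1%, holds the value of the others.

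**Figure D4:**
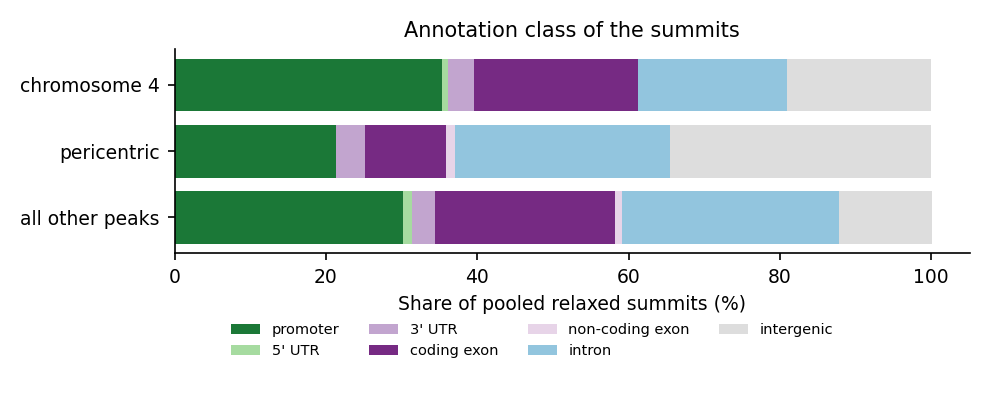
Share of pooled relaxed summits (%) in each annotation class, for chromosome 4, the pericentric parts and all other peaks. The grey intergenic portion is 34.6% in the pericentric parts, 19% on chromosome 4 and 12.3% among all other peaks.

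Few summits sat inside transposable elements, mobile DNA that can copy itself. Annotated elements made up 24.8% of the bases of chromosome 4 and 14.9% of the pericentric parts, against 4.84% of the rest. Yet 7 of 116 chromosome 4 summits (6.03%) and 18 of 159 pericentric summits (11.3%) lay in one, against 65 of 29725 elsewhere (0.219%). Peaks that touched an element with any base were 14.7% on chromosome 4 and 12.6% in the pericentric parts, against 0.653% elsewhere, so the order of chromosome 4 and the pericentric parts turned round. Summits on lower-case bases of the reference were 10.3% on chromosome 4 and 6.29% in the pericentric parts, against 10.4% elsewhere. No optimal member touched an element. How reads with several matching places were handled is not given in the sources used here, and its part in these shares was not tested.

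Among the 25 summits in elements, the strongest was in a Tc3 element on chromosome 4 (64304 to 64703) with signal 49.8 and rank 3658. The next was in a G2 element on 3L, at 38.4. Copies of INE-1, a short and very common element of flies, took 9 of the 25 summits, with signals up to 32.9. Elements named gypsy2 or gypsy8, which are retrotransposons, held 5, all on 3L and none above 32.1.

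**Figure D5:**
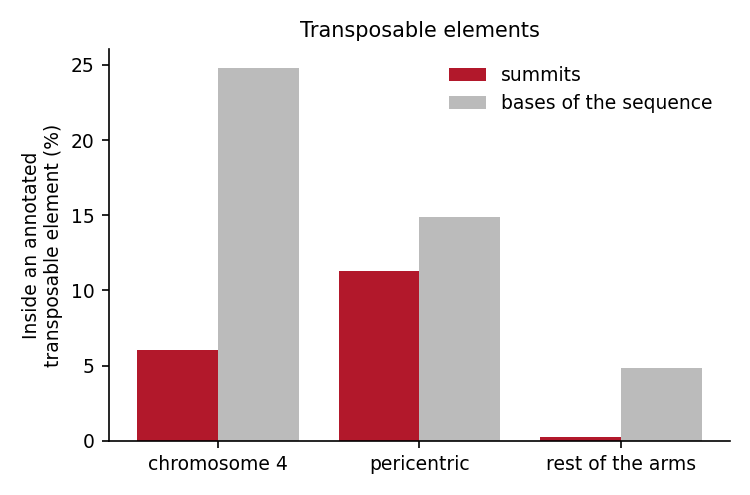
Share of summits (red) and of bases (grey) inside annotated transposable elements, in percent, for chromosome 4, the pericentric parts and the rest of the arms. In each the summit share is below the base share, at 6.03% against 24.8% on chromosome 4.

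Base composition differed between the members. The DNA within 50 bp of the summit had a median GC content of 40.6% on chromosome 4 and 50.5% in the pericentric parts, against 48.5% for all other peaks. The whole sequence had 35.2% on chromosome 4 and 39.9% in the pericentric parts, against 42.5% elsewhere. The median summit window was thus richer in GC than the sequence as a whole in all 3 sets. This did not hold for the optimal peaks elsewhere, whose median was 39.6%, while the 9 on chromosome 4 had 37.6%. The part of base composition in the signal was not tested.

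Motifs were looked for within 50 bp of each summit on either strand. GAGAG, the core of GAGA factor sites, was in 12.9% of chromosome 4 windows and 22.6% (16.8% to 29.7%) of pericentric ones, against 14.5% of all other windows. CGATA, a core of BEAF-32 sites that also lies inside TATCGATA, was in 14.7% and 14.5%, against 13.1%. TATCGATA, the DNA replication-related element, was in 3 of 116 chromosome 4 windows (2.59%) and 0 of 159 pericentric ones, against 0.959%. Of those 3 windows, the ones with summits at 979438 and 980674 were in INE-1 copies, and the other was in no element. TATAAA was in 7.76% and 6.92%, against 6.69%, and CACAGTGG in 0.862% and 1.26%, against 1.32%. ACACACAC, a CA repeat, was in 1.72% and 0.629%, against 2.61%. Of the 6 motifs, GAGAG in the pericentric parts is the only one whose interval misses the share of all other windows. Every motif was looked at in both parts, and neighbouring peaks were counted separately, so this miss alone does not set the pericentric parts apart. Weighted to the same mix of annotation classes, all other windows had GAGAG in 14.2% for the pericentric mix and 14.4% for that of chromosome 4. A match is a description of letters and not of binding.

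For the gene lists, the values over genes elsewhere are a pooled summit near a start for 46.8%, and over all genes with such a summit an optimal one for 20.7%. Of 17 chromosome 4 transcription factor and cofactor genes, 7 had a pooled peak within 500 bp of a start and 1 an optimal one, Sox102F. After it came pan at 63.1 and zfh2 at 35.1, while ci, the Hedgehog pathway factor, had 31, and ey, the eye-specifying Pax6 gene, had no pooled peak there. Of 24 signalling, neuronal and cytoskeletal genes on the chromosome, 6 had a pooled peak and 1 an optimal one, PlexA, followed by PlexB and CaMKII. Eph and Ephrin, a receptor and ligand pair of axon guidance, had none.

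Of 14 housekeeping and metabolic genes, 6 had a pooled peak and 1, RpS3A, an optimal one, followed by gw and Tdg. The 3 chromosome 4 lists thus had 1 optimal gene among 7, 6 and 6 with a pooled peak, counts too small to set apart from 20.7%. The medians of the strongest peak per gene were 34.9, 49.3 and 57.6 over the 3 lists in the order given, beside 38.4 over all genes with a pooled peak. Of 21 classical genes of pericentric heterochromatin inside the intervals, 4 had a pooled peak, against 46.8% of genes elsewhere. None of the 4 was optimal, a count too small to be told from 20.7%. They were Gfat1 at 45.7, the ribosomal protein gene RpL15 at 31, and stnA and stnB, a pair of endocytic genes on 1 transcript, which shared a peak of 20.4. The light gene lt, the G protein gene cta and the synaptic gene Snap25 had no pooled peak within 500 bp of a start.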

How the data were processed

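The authors deposited narrowPeak lists per replicate, pooled and optimal, whose signal column is their own enrichment value. The summit offset is in bp. Per the deposited file listing, relaxed lists came from alignments and 1 control file. No aligner, caller, version or reproducibility cutoff is given in the sources used here. Coordinates are dm6, 1-based.

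Members were taken by summit position. Members, gene lists and motifs were chosen with earlier results of these data known. Summits were annotated with Ensembl release 115 on BDGP6.54, whose arms match dm6, as promoter within 500 bp of a start, and otherwise by the first match among UTRs (5′ before 3′), coding exons, other exons and introns, or else as intergenic. Python 3.11.15, NumPy 2.4.6, pandas 2.3.3 and SciPy 1.17.1 were used. The code for summit classes, peak overlap, motif matches and the position rule was checked on simulated data. The Wilson intervals were not part of that check. Overlap needed 1 bp. Shares are given with Wilson intervals at 95%, and the limit for a count of 0 uses 3 counts. Signal was used only within a list, to rank or describe. With 1 group, no test between groups of samples exists. Replicates 3 and 4 shared 0 identical intervals and 0 identical signals. The strongest member peaks differed in width between the replicate lists, so the count of identical intervals says little about the libraries. Depth is unknown. The labels call the libraries biological replicates and give no collection or batch.

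Named genes are those of the optimal members, the 15 strongest members and the 3 strongest in each part, up to 3 of each gene list, and the peaks beside each boundary; other named peaks were picked after their values were seen. Alternatives changed the strong list, replicate, boundary, start distance, overlap and window.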

Additional observations from a re-analysis of the deposited data

Results flagged for a closer look

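The older dm3 build keeps heterochromatin and unplaced contigs apart from the arms, and the peaks there enter none of the comparisons above. The pooled relaxed dm3 list held 76 peaks on them, the replicate 3 list 172 and the replicate 4 list 77. None of these lists had such a peak among its 1985 strongest, and the dm3 optimal list held 0. The best pooled rank was 4459, with a signal of 45.4.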

How the results depend on the processing

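Of 40 alternatives over 13 results, 33 were planned and 7 were chosen after seeing the data (joined overlaps, the stricter list and single replicates for chromosome 4, single replicates for density, lower-case bases). Of the values, 20 stayed within the error and 20 moved. The error was the Wilson interval for shares. For the log2 median and the density it was the standard deviation between replicates, 0.00727 and 10.8. No value changed its sign, but shares and densities cannot be negative, so only the log2 median could have done so. Without chromosome 4 the optimal share was 0%. The promoter share was 19.6% with starts within 250 bp, 35.6% within 1000 bp and 21.8% with protein-coding starts. All other peaks had 20.9%, 44.8% and 27.4% at these settings, so the gap between members and others also depended on the start distance. On the log2 scale the member median relative to all other peaks was -0.11, between -0.15 and -0.14 in single replicates, and -0.12 or -0.083 with boundaries 200 kb towards or away from the centromere. Peaks per Mb were 20.8 as reported, 34.1 on upper-case bases only, 21 without replicate 3 and 36.2 without replicate 4. With 50% of the peak covered, 40% met both replicates. Counting any part of the peak rather than the summit, 13.5% of peaks touched an element. Narrower (51 bp) and wider windows gave CGATA 8% and 25.1%, GAGAG 10.2% and 29.1%, and TATAAA 4% and 16.7%. At 51 bp TATCGATA and ACACACAC gave 0.364% each. The strongest 1000 pooled peaks held 1.82% of members and 4.31% of chromosome 4 peaks, against 3.35% of all other peaks. Leaving out a replicate put the optimal share at 2.3% to 3.61% for members and 5.03% to 8.93% for chromosome 4, and the promoter share at 22.8% to 23.5%. No paired analysis was possible because there is 1 group. The cause of each move was not tested beyond what its construction sets. Unknown depth limits how firmly absent pericentric optimal peaks can be read.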
